A study of Mus musculus with 6 samples.

Results

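Solute carriers are membrane proteins that move amino acids, sugars, ions, metals, nucleosides, vitamins and organic acids across the plasma membrane and the membranes of organelles. Some are exchangers, some couple the solute to sodium or protons, and others let it pass down its gradient. In the kidney each tubule segment is known by its own set of apical and basolateral carriers, and the distal convoluted tubule is defined by the thiazide-sensitive sodium chloride cotransporter, the product of *Slc12a3*. The genes described here are the rows of the deposited expression table whose symbol has the form Slc, a number, the letter a and a number, without the mitochondrial Slc25 family, and whose mean normalized count over all samples is at least 20. Shares of the genes in the table count only genes that have a row in it. The table holds 196 such symbols outside Slc25, with 0 repeated symbols, and 134 of them (68.4%) reached the minimum. They were chosen by that mean, so the means below are a description with no test.

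The RNA came from mDCT15 cells, a mouse cell line of the distal convoluted tubule, in 3 wild type and 3 *Pkd1*-/- samples that the titles number as biological replicates. The *Pkd1*-/- cells were made from the same line by CRISPR/Cas9 editing of *Pkd1*, the gene of polycystin-1, although the genotype field of the labels describes them as a knockdown. Both lines grew in the same medium with serum, and whether the edited line is a single clone is not given in the sources used here. The single column used here is the authors' mean over all 6 samples of both genotypes, so no value per sample or per genotype, no spread between replicates and no depth per library stand behind it. A gene's mean can come from equal levels in both genotypes or from 1 of them alone, and the genotypes were not compared. For the same reason the mean of the targeted gene, *Pkd1*, at 3175, does not check the knockout. In bulk RNA, fewer cells that express a gene and less RNA per cell cannot be told apart.

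The rule selects letters in a symbol, and it reaches 2 genes that are not transporters. *Slc9a3r1* and *Slc9a3r2*, named Nherf1 and Nherf2 in the current annotation, encode scaffold proteins that bind the tails of membrane proteins. They are members by the rule and are given separately. The rule leaves out carriers with another letter in the symbol, such as most nucleotide sugar carriers of Slc35 and the organic anion carriers named Slco.

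The mean normalized counts of the members ranged from 21.3 for *Slc52a3*, a riboflavin carrier, to 14273 for *Slc38a2*. The median was 474, with quartiles of 133 and 1180. Of the 134 members, 26 had a mean from 20 to 100, 70 from 100 to 1000, 37 from 1000 to 10000 and 1 above that. Just inside the limit, after *Slc52a3*, lay *Slc30a3* (26.2), *Slc27a3* (27.6), *Slc2a2* (28.7) and *Slc13a5* (30.7). Just outside it lay *Slc1a6* (19.1), *Slc7a3* (18.7), *Slc13a2* (17.0), *Slc9a2* (15.8) and *Slc2a9* (14.5). The 62 solute carriers under the minimum had a median of 2.85. Of all 20624 rows of the table, 60.7% reached the same minimum, and so did 39 of the 43 Slc25 rows (90.7%). The 20624 rows include genes that do not encode proteins, and the share over protein-coding rows alone is not given. Together the members held 0.761% of the summed mean normalized count of the table, in which a pair of loci, *Gm26917* and *Gm42418*, held 8.08%.

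**Figure D1:**
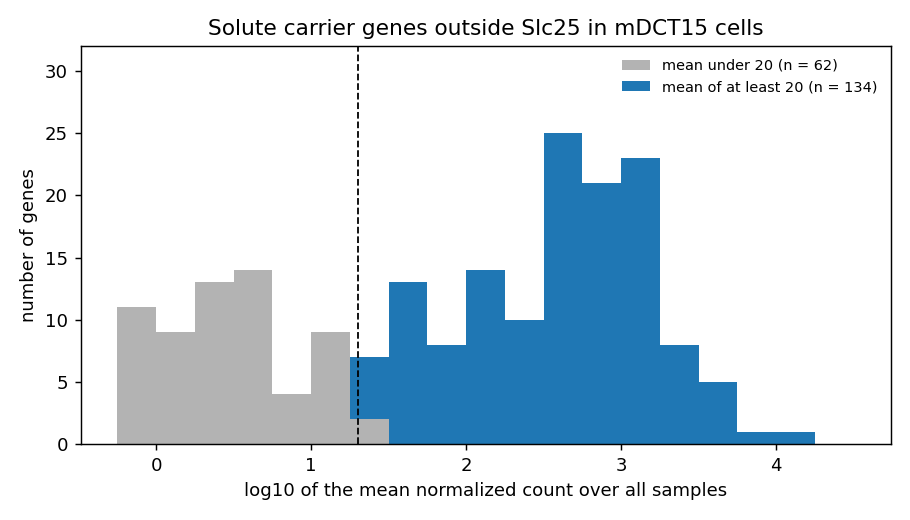
Number of solute carrier genes outside Slc25 (y axis) in bins of the log10 of the mean normalized count over all 6 samples (x axis). The dashed line marks the minimum of 20, with 134 genes above it in blue and 62 below it in grey, stacked in the bin that holds the line; most members lie between 100 and 10000, and the genes under the minimum have a median of 2.85.

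A long transcript collects more reads than a short one, so levels are compared between genes as the mean normalized count divided by the length of all annotated exons of the gene in kb, given here as the level per kb. All 134 members had an annotated length, with a median of 7.09 kb of exon and 1.69 kb of coding sequence. Their median level was 62.0 per kb, and 57.2 per kb without the scaffold genes. The 39 Slc25 genes at the same minimum had a median of 81.7 per kb and the 11380 protein-coding genes at that minimum a median of 103 per kb. Among the members, 19 (14.2%) lay in the highest 25% of those protein-coding genes and 54 (40.3%) in the lowest 25%. With the longest transcript, the canonical transcript, the coding length or no length correction, the members' median was 0.534 to 0.692 times that of protein-coding genes, against 0.601 times with all exons. No test was made of this difference.

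The levels were concentrated in a few genes. The 10 highest members held 41.7% of the level per kb summed over all members. They were *Slc38a2*, *Slc7a5*, *Slc9a3r1*, *Slc3a2*, *Slc6a6*, *Slc22a23*, *Slc39a1*, *Slc7a1*, *Slc38a10* and *Slc12a4*. *Slc38a2*, *Slc7a5*, *Slc3a2* and *Slc7a1* encode amino acid carriers or subunits of amino acid exchangers, and *Slc6a6* encodes a taurine carrier. With the longest transcript 9 of these 10 genes stayed among the 10 highest, with the coding length 8, with the canonical transcript 8 and without any length correction 7. The genes that entered under those choices were *Slc4a2*, *Slc31a1*, *Slc38a1* and *Slc6a17*.

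**Figure D2:**
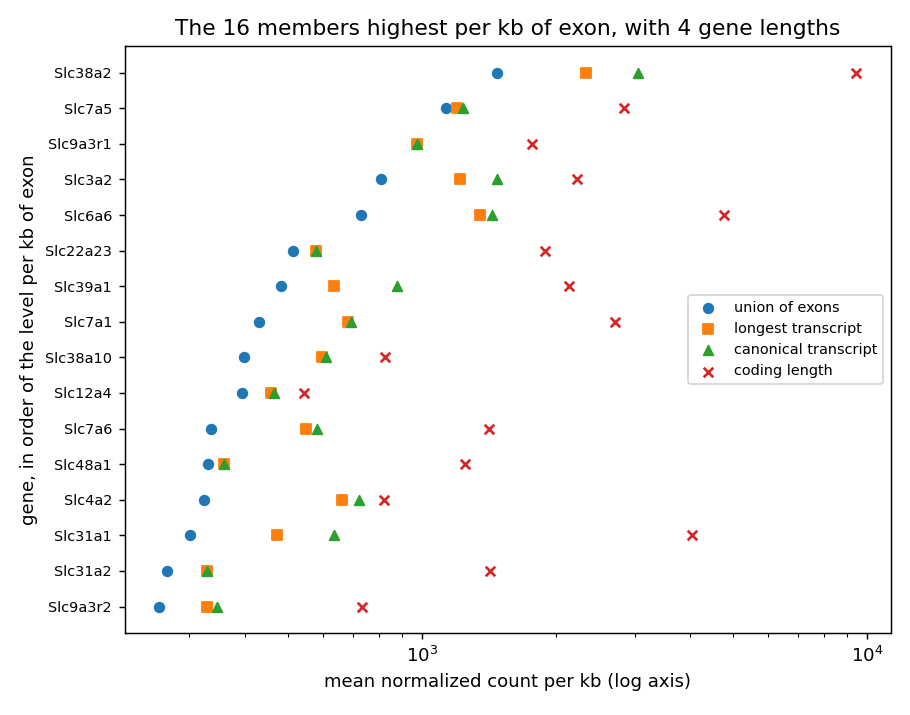
Mean normalized count per kb (x axis, log) of the 16 members with the highest level per kb of exon (y axis), each under 4 gene lengths: all exons (circles), the longest transcript (squares), the canonical transcript (triangles) and the coding sequence (crosses). *Slc38a2* is the highest with each length, while *Slc31a1* goes from rank 14 to rank 3 among all members with the coding length.

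*Slc38a2* (ENSMUSG00000022462, minus strand of chromosome 15 of GRCm39 from 96585266 to 96597894) encodes SNAT2, a sodium-coupled carrier of small neutral amino acids. Its mean of 14273 was the highest of all members, and its level of 1472 per kb was above that of 98.2% of the 12444 rows of the table that reached the minimum and had a length. It alone held 8.38% of the summed level of the members. *Slc7a5* (ENSMUSG00000040010, chromosome 8 from 122607884 to 122634433), which encodes the light subunit LAT1 of the exchanger of large neutral amino acids, had a mean of 4353 and a level of 1133 per kb. *Slc3a2* (ENSMUSG00000010095, chromosome 19 from 8684245 to 8701108) encodes the heavy subunit 4F2hc that brings LAT1 and related light subunits to the cell surface, and had a mean of 3767 and a level of 807 per kb. *Slc6a6* (ENSMUSG00000030096, chromosome 6 from 91660573 to 91736047), the sodium and chloride dependent taurine carrier, had a mean of 8886, the second highest of all members, but its 12.2 kb of exon put it at 729 per kb, the fifth.

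The order of the next genes was closer. *Slc22a23* (ENSMUSG00000038267, chromosome 13 from 34363141 to 34529657), an organic ion carrier by sequence whose substrate is not settled, had a level of 512 per kb. *Slc39a1* (ENSMUSG00000052310, chromosome 3 from 90155138 to 90160924), which encodes the zinc importer ZIP1, had a level of 482 per kb, and *Slc7a1* (ENSMUSG00000041313, chromosome 5 from 148264220 to 148336848), the cationic amino acid carrier CAT1, 429 per kb. *Slc38a10* on chromosome 11 followed at 397 per kb and *Slc12a4* on chromosome 8, the potassium chloride cotransporter KCC1, at 394 per kb. Without a spread between samples it cannot be said which neighbours in this order differ. *Slc9a3r1*, the higher of the scaffold genes, had a level of 974 per kb and *Slc9a3r2* 257 per kb.

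The members were grouped by whole subfamilies into classes named for what a subfamily is known to carry. A class can therefore hold members with another solute, such as the multivitamin carrier *Slc5a6* among the sugar carriers. Carriers of amino acids and peptides made up 29 members of the 45 in the table and held 38.9% of the summed level per kb. Carriers of metals and haem followed with 24 of 28 members and 18.2%, and those of sodium, potassium, calcium, chloride and bicarbonate with 23 of 31 members and 11.3%. Carriers of monocarboxylates and organic ions held 6.79%, of sugars and sugar phosphates 5.59%, of vitamins, choline, lipids and acetyl-CoA 5.08%, of nucleosides and nucleotide sugars 5.05% and of phosphate 2.04%. The scaffold genes held the rest. The first 3 classes kept their order with each gene length and without one, and the order of the others did not hold. The typical gene of a class gave another picture. The median of the metal carriers, 106 per kb, was above that of the amino acid carriers, 74.3 per kb, whose levels ran from 5.41 to 1472 per kb, and the monocarboxylate and organic ion carriers had the lowest median, 19.3 per kb.

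**Figure D3:**
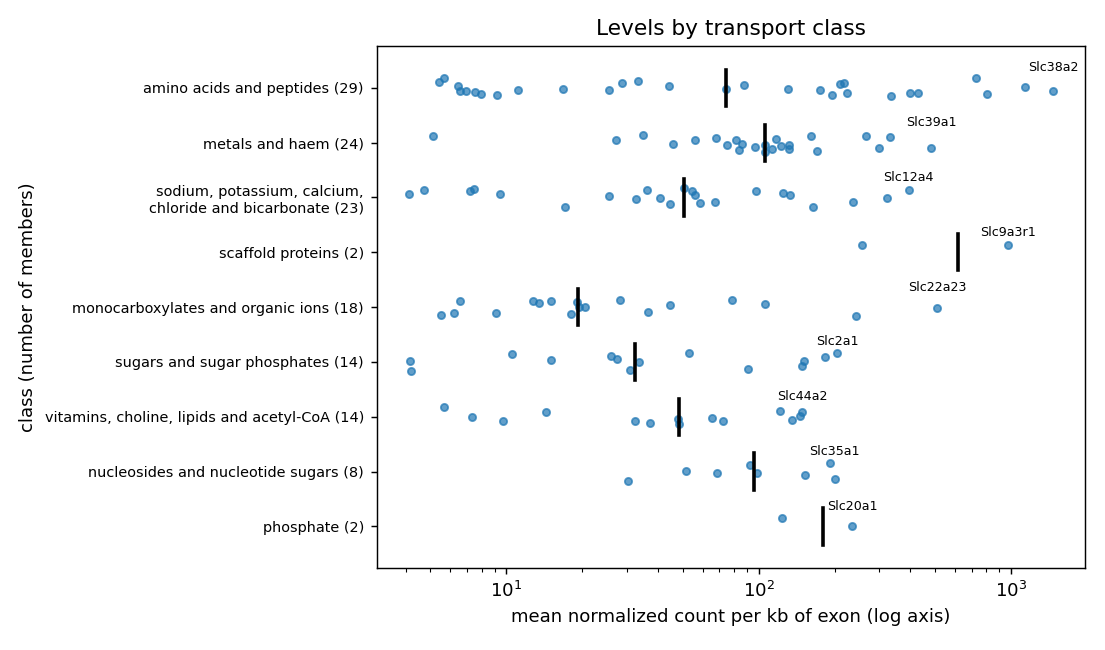
Mean normalized count per kb of exon (x axis, log) of each member (points) by transport class (y axis, with the number of members), in the order of the class sums from top to bottom; vertical bars are class medians and the highest gene of each class is named. Amino acid carriers range from 5.41 to 1472 per kb, and the metal carriers lie closer together around a median of 106.

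Among amino acid carriers, the light and heavy subunits of the exchangers can be set beside each other. Light subunits of Slc7 reach the surface only in a complex with a heavy subunit of Slc3. The light subunits that pair with the product of *Slc3a2* added up to 1.87 times the level per kb of *Slc3a2*, and to 1.29 to 2.08 times with the other gene lengths. *Slc7a5* alone was at 1.40 times the level of *Slc3a2*, but at 0.840 times with the canonical transcript, so which of the pair is higher depends on the length used. *Slc7a6*, the light subunit y+LAT2 of an exchanger of cationic and neutral amino acids, was at 335 per kb. *Slc7a11*, the cystine and glutamate exchanger xCT that feeds glutathione synthesis, had a mean of 515 but only 33.2 per kb over its 15.5 kb of exon. It was at 0.0411 times *Slc3a2* per kb of exon, but at 0.154 times with the coding length. *Slc7a7*, the light subunit y+LAT1 of kidney and gut epithelium, was low at 6.57 per kb, and *Slc7a8*, which encodes LAT2, was under the minimum with a mean of 8.34. The heavy subunit of the cystinuria exchanger, *Slc3a1*, had a mean of 10.3, under the minimum. *Slc3a2* was 423-fold higher per kb, or 366-fold by mean count and 773-fold with the canonical transcript. The light subunit *Slc7a9* has no row in the table and was not analysed.

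**Figure D4:**
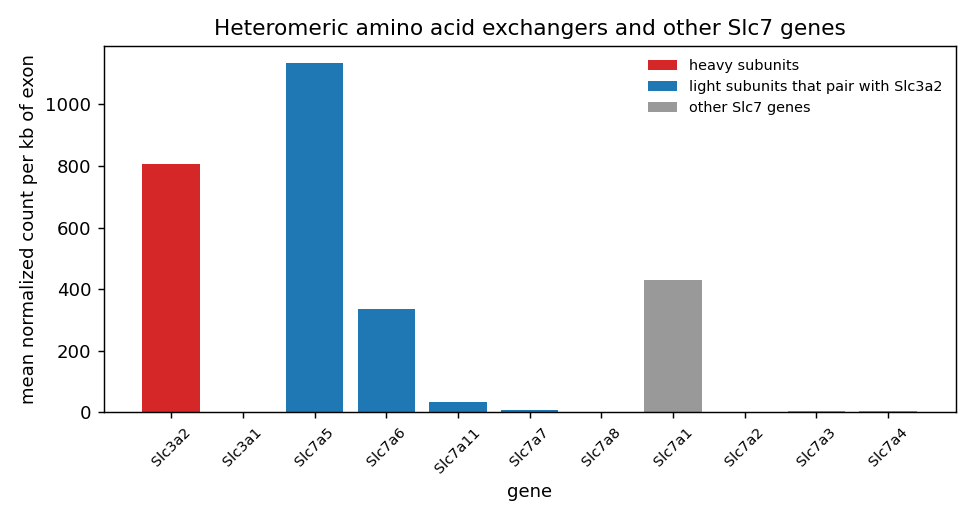
Mean normalized count per kb of exon (y axis, linear from 0) of the Slc3 heavy subunits (red), the Slc7 light subunits that pair with the product of *Slc3a2* (blue) and other Slc7 genes (grey), as single pooled means with no error bars. *Slc7a5*, *Slc3a2*, *Slc7a1* and *Slc7a6* stand at 335 to 1133 per kb, and the other genes are at 33.2 per kb or lower.

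In Slc38, which had 7 members, *Slc38a2* held 67.8% of the summed level, and *Slc38a1*, the related carrier SNAT1, had a mean of 3690 and a level of 195 per kb over 18.9 kb of exon. *Slc38a7* and *Slc38a9*, both of the lysosome, were at 74.3 and 16.9 per kb, and *Slc38a9* is also known as an arginine sensor for mTORC1. In Slc1, *Slc1a5*, the glutamine carrier ASCT2, was at 224 per kb and *Slc1a4*, the serine carrier ASCT1, at 211 per kb. The glutamate carriers *Slc1a3* and *Slc1a2* were at 25.6 and 5.69 per kb. In Slc6, *Slc6a17*, known as a vesicular carrier of neutral amino acids in neurons, had a mean of 2552 and 218 per kb, *Slc6a8*, the creatine carrier, 174 per kb, and *Slc6a9*, the glycine carrier GLYT1, 131 per kb. The amino acid carriers *Slc36a1*, which is proton-coupled, and *Slc36a4* were at 87.2 and 44.2 per kb.

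Importers and exporters of zinc were both among the members. The zinc importers of Slc39 had 9 members of 11, led by *Slc39a1*, with *Slc39a13* at 161 per kb, *Slc39a6* at 133 per kb and *Slc39a14*, which also takes up iron and manganese, at 86.3 per kb. The lowest was *Slc39a7* at 27.1 per kb, but 78.3% of its exonic bases are also exon of another annotated gene, *Gm20427*, on the same strand, so its value is uncertain. The zinc exporters of Slc30 had 7 members of 9. *Slc30a4* led at 170 per kb of exon, but not with the other gene lengths. With the longest transcript *Slc30a9* was above it, at 287 against 170 per kb. With the coding length *Slc30a7* (1179 per kb) and *Slc30a9* (942 per kb) were above *Slc30a4* (776 per kb). Per kb of exon, the plasma membrane exporter *Slc30a1* was at 83.8. *Slc30a5* and *Slc30a6*, which form a heterodimer of the secretory pathway, were at 81.7 and 75.2 per kb. The copper importer *Slc31a1* was at 300.4 per kb and *Slc31a2* at 268 per kb. The ratio of *Slc31a1* to *Slc31a2* was 1.12 per kb, but 2.83 with the coding length and 3.89 by mean count. *Slc48a1*, a haem carrier of the endosome, was at 331 per kb, with 82.1% of its exonic bases shared with exons of other genes on the opposite strand. Whether reads of those genes entered its count was not tested. The iron carriers *Slc40a1*, which encodes the exporter ferroportin, and *Slc11a2*, which encodes the importer DMT1, were at 132 and 106 per kb. The magnesium carriers *Slc41a1*, *Slc41a2* and *Slc41a3* were at 123, 113 and 34.7 per kb.

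Ion carriers of cell volume and pH were among the members. All 7 Slc12 genes in the table were members, while *Slc12a1* and *Slc12a3* have no row in it. *Slc12a4* led, the sodium potassium chloride cotransporter *Slc12a2* (NKCC1) was at 164 per kb, and *Slc12a7* (KCC4) was at 133 per kb. By mean count *Slc12a2* was above *Slc12a4*, at 2080 against 1776, and with the coding length it was at 1.03 times *Slc12a4*. *Slc12a5*, the neuronal cotransporter KCC2, was the lowest of all members at 4.11 per kb. In Slc4 the chloride and bicarbonate exchanger *Slc4a2* was at 324 per kb, the sodium bicarbonate cotransporter *Slc4a7* at 97.8 per kb and *Slc4a4* at 32.8 per kb. *Slc26a11* and the sulfate carrier *Slc26a2* were at 54.6 and 50.5 per kb, and 3 of the 7 Slc26 genes in the table were members. Of the sodium calcium exchangers of Slc8, *Slc8a2* and *Slc8a3* were both under the minimum, at means of 10.9 and 1.92.

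For sugars, *Slc2a1*, which encodes the glucose carrier GLUT1, had a mean of 959 and 204 per kb and held 72.9% of the level of its subfamily. It was 6.06-fold higher per kb than *Slc2a8*, or 2.74-fold with the canonical transcript. *Slc2a4*, the insulin-sensitive carrier, and *Slc2a2*, the carrier of liver and proximal tubule, were at 10.6 and 4.16 per kb, and *Slc2a3* was under the minimum at a mean of 2.35. Of 10 Slc5 genes in the table only 2 were members, *Slc5a3*, the myo-inositol carrier that responds to osmolarity, at 151 per kb and *Slc5a6*, the multivitamin carrier, at 52.8 per kb. The sodium glucose cotransporters *Slc5a1* and *Slc5a2* had means of 0.943 and 2.77. *Slc37a3* led Slc37, the subfamily grouped here as sugar phosphate carriers, at 148 per kb. *Slc37a4*, the glucose-6-phosphate carrier of the endoplasmic reticulum, was at 25.9 per kb, with 89.9% of its exonic bases shared with exons of other genes on the opposite strand. Whether reads of those genes entered its count was not tested.

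Among monocarboxylate carriers, *Slc16a1*, which encodes the lactate carrier MCT1, was at 243 per kb and the aromatic amino acid carrier *Slc16a10* at 106 per kb. *Slc16a7* (MCT2) was at 9.08 per kb, and *Slc16a3* (MCT4), the lactate exporter of glycolytic cells, was under the minimum with a mean of 3.20. MCT1 needs the chaperone basigin or embigin. *Bsg*, which encodes basigin and serves other partners too, was 10.9-fold higher per kb than *Slc16a1*, or 7.25-fold with the coding length and 15.1-fold with the longest transcript, and *Emb*, which encodes embigin, was at 0.316 times *Slc16a1*, or 0.906 times with the coding length. In Slc22, *Slc22a23* held 79.8% of the level of 6 members, and *Slc22a5*, the carnitine carrier OCTN2, was at 36.3 per kb. The phosphate carriers were both of the ubiquitous kind, *Slc20a1* at 235 per kb and *Slc20a2* at 124 per kb. The ratio of *Slc20a1* to *Slc20a2* was 1.89 per kb, but 1.16 with the canonical transcript and 1.00 with the coding length. The kidney phosphate carrier *Slc34a1* had a mean of 2.04. The nucleoside carrier *Slc29a1* (ENT1) was at 153 per kb, and the Golgi carriers *Slc35a1* of CMP-sialic acid and *Slc35a2* of UDP-galactose were at 200.4 and 68.3 per kb. *Slc44a2* and *Slc44a1*, choline carriers, were at 149 and 122 per kb, *Slc33a1*, the acetyl-CoA carrier of the endoplasmic reticulum, at 146 per kb, and *Slc27a4*, a fatty acid transport protein, at 136 per kb.

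Markers of the tubule segments were read against the label of the line. Of 14 markers listed for the distal convoluted tubule, 7 have a row in the table and all 7 reached the minimum. They were *Cnnm2* with a mean of 643, the kinase gene *Stk39* with 621, the potassium channel gene *Kcnj16* with 428, the kinase gene *Wnk4* with 413, *Egf* with 48.3, *Kcnj10* with 38.3 and the magnesium channel gene *Trpm6* with 29.6. All 7 means were below 685, the median of the protein-coding genes at the minimum, and 60.7% of all rows reached that minimum. The 7 other listed markers, among them the defining carrier *Slc12a3*, *Slc8a1*, *Pvalb* and *Calb1*, have no row and were not analysed. The paper states a minimum of 5 counts for a gene in each sample. The lowest mean in the table is 0.618 and 1257 rows have a mean below 1, so the table holds rows under that minimum as worded. Whether the genes without a row were left out for few reads was not tested. The label of the line could therefore not be checked against its defining cotransporter. All 4 markers of the thick ascending limb and all 5 of intercalated cells, *Slc12a1*, *Slc26a4* and *Slc4a1* among them, likewise have no row. Of 14 proximal tubule markers 8 have a row and 4 reached the minimum. These 4 were *Lrp2*, which encodes the endocytic receptor megalin, with a mean of 8826, *Cubn* with 169 and the carriers *Slc17a1* and *Slc6a19* with 45.4 and 39.8. The proximal carriers *Slc5a2*, *Slc34a1* and *Slc22a8* had means of 2.77, 2.04 and 1.11. Of the 6 principal cell markers only *Scnn1a* reached the minimum, with 54.1. The kidney cadherin gene *Cdh16* was at 4680 and *Epcam* at 115, *Krt8* was at 0.980, *Cdh1* and *Krt18* have no row, and *Vim* was at 17450, *Col1a1* at 201 and *Pdgfrb* at 4.48. The leukocyte and endothelial markers *Ptprc* and *Pecam1* were at 5.36 and 4.68. What part these markers play in the carrier levels was not tested.

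The promoters of the genes were not used to choose them, and their CpG content is described here beside the level, with no test. Vertebrate promoters rich in CpG dinucleotides are typical of broadly expressed genes, and promoters poor in them of tissue-restricted genes. The RefSeq table of promoters (build GRCm38.p6, 250 bases before to 50 after the start) held 101 of the 134 members and 45 of the 62 carriers under the minimum. Stretches of 120 bases that end just before the start, on the strand of the gene, show high and low CpG content, with CpG dinucleotides in capitals. The first pair belongs to amino acid carriers that are among the highest members, the second pair to proximal tubule carriers with means of 2.04 and 1.11.
Slc38a2, chr15:96699729-96699848, minus strand: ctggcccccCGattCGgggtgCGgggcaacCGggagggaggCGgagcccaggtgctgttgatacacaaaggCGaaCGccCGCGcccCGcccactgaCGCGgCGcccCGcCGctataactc
Slc3a2, chr19:8713898-8714017, minus strand: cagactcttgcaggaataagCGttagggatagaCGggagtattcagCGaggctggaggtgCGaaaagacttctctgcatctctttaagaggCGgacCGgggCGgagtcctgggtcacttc
Slc34a1, chr13:55399528-55399647, plus strand: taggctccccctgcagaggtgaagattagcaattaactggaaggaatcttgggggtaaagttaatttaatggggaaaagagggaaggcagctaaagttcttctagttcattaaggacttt
Slc22a8, chr19:8593062-8593181, plus strand: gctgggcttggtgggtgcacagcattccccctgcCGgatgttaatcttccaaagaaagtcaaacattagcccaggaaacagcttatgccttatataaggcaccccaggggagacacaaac

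The 120 bases of *Slc38a2* hold 15 CpG dinucleotides and those of *Slc3a2* 7, against 0 for *Slc34a1* and 1 for *Slc22a8*. The CpG ratio, the observed number over that expected from the content of C and G in all 300 bases of the window, was 1.03 for *Slc38a2*, 0.649 for *Slc3a2*, 0.131 for *Slc34a1* and 0.0455 for *Slc22a8*. Over the members its median was 0.703, with quartiles of 0.595 and 0.853, and over the carriers under the minimum 0.414, with quartiles of 0.237 and 0.706, so the quartile ranges overlapped. A ratio of at least 0.6 was found in 74 of 101 members (73.3%) and in 16 of 45 carriers under the minimum (35.6%). Of the 9287 promoters of all table genes at the minimum 77.1% had that ratio, and of all 27025 promoters 36.5%. Within the members, the share was 52.9% of 17 with a mean under 100, 74.1% of 58 with a mean from 100 to 1000 and 84.6% of 26 with a mean of at least 1000. Spearman's rho between the CpG ratio and the mean count was 0.42 over 146 carriers and 0.28 over the 101 members. These genes are not independent replicates, and they share base composition and the same libraries. For genes other than solute carriers, neither the shares by bin of the mean nor rho were computed. Whether the rise with the mean is particular to solute carriers was therefore not tested. The table lists several starts for 29 of the 101 members and for 4 of the 45 carriers under the minimum, and the first listed was used, which need not be the start these cells use. With the start of the highest ratio 77.2% of the members had a ratio of at least 0.6, and with that of the lowest ratio 66.3%. *Slc4a7*, with 1 listed start, had a low ratio of 0.132 at a mean of 1494. Its window lies on the plus strand of GRCm38.p6, while the gene is annotated on the minus strand of GRCm39. The start these cells use for *Slc4a7* is not known. *Slc39a10* and *Slc6a17* had ratios of 0.0894 and 0.169 at their first start and of 1.20 and 0.857 at their other one.

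**Figure D5:**
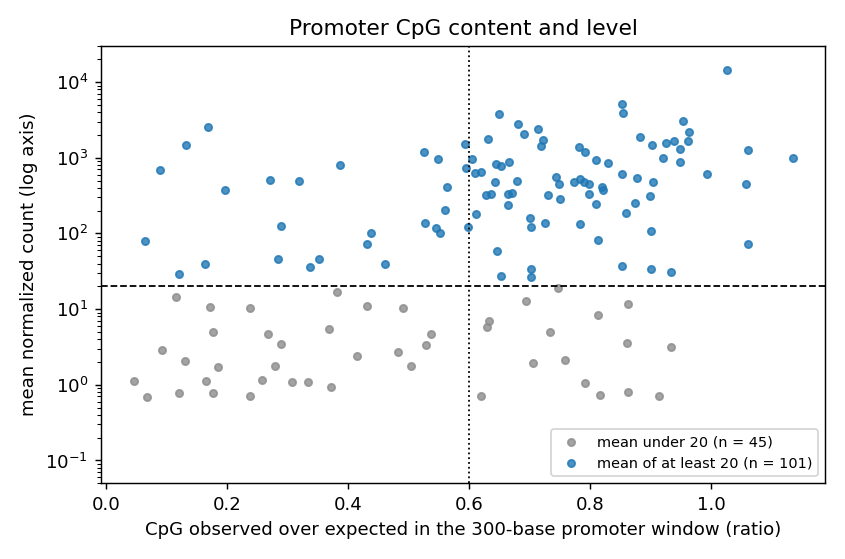
Mean normalized count (y axis, log) against the CpG ratio of the 300-base promoter window (x axis, observed over expected) for 101 members (blue) and 45 solute carriers under the minimum (grey). The dashed line is the mean of 20 and the dotted line a ratio of 0.6; 73.3% of the members and 35.6% of the low carriers lie to its right.

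Short motifs were searched on both strands of the same windows. TATAAA was found in 7 of 101 members (6.93%), among them *Slc2a1* and *Slc20a1*, in 9 of 45 carriers under the minimum, in 6.32% of the table genes at the minimum and in 14.2% of all promoters. TGATGNAA, the core of the composite element bound by ATF4 and C/EBP factors, was found in 6 members (5.94%), in 2 of 45 carriers under the minimum, in 2.07% of the table genes at the minimum and in 4.06% of all promoters. Of the 20 amino acid carriers with a promoter it was present in 3, *Slc1a4*, *Slc7a7* and *Slc7a11*. TGACNNNGC, the core of the antioxidant response element, was found in 19 members (18.8%), in 15.0% of the table genes at the minimum, in 12.5% of all promoters and in 3 of 45 carriers under the minimum. CACGTG was found in 14 members (13.9%), in 7 of 45 carriers under the minimum (15.6%), in 10.5% of the table genes at the minimum and in 7.24% of all promoters. A match describes letters in the window and not binding.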

How the data were processed

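RNA sequencing of 3 wild type and 3 *Pkd1*-/- mDCT15 samples was used, grouped by their titles. Per the paper's methods and the submitters' processing notes, the authors depleted ribosomal RNA, trimmed reads with Trim Galore 0.4.5, mapped them with STAR 2.7.5a to GRCm39, counted them with HTSeq 0.11.0 at default settings and normalized with DESeq2 1.22.0 in R 3.5.3. The deposited signal is a mean normalized count per gene over all 6 samples. The methods also state a minimum count per gene and sample, although 1257 rows of the table have a mean below 1. Genes without a row may have been left out for few reads, which was not tested. The TPM values that the methods mention were not used here. The table also holds the authors' own comparison (fold changes, standard errors, statistics and p-values), which was not used, so the genotype test written for counts per sample was not run, the depth per sample is unknown and no interval is given. Apart from the columns of the authors' comparison, the number of numeric columns without a match to a sample or to the whole set was 0. Counts over a gene do not resolve isoforms.

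Each mean was divided by the union of the gene's exons in GENCODE M39 (GRCm39), found for 20122 rows (97.6%). This annotation is later than the authors' and can hold longer exon unions. A planned scaling of levels to a common total was left out because it multiplies all levels alike. Some exonic bases of 85 members are shared with another gene, over 50% in 6. The genes named were the 10 highest, the highest of subfamilies with at least 4 rows, listed markers and partners, those next to the minimum, and others of the class described. *Slc6a17*, *Slc4a7*, *Slc39a10*, *Slc30a7*, *Slc30a9* and the genes with motifs or shared exons were also named after their values were seen. Members, lists and classes were chosen with earlier results of these data known. Helper steps were run on small made-up inputs with known answers, and the simulated check of levels could only return its own input. Promoters came from RefSeq (GRCm38.p6), at the first start listed for a gene. Tables were handled in pandas 2.3.3 on Python 3.11.15, correlations came from scipy 1.17.1 with numpy 2.4.6, and plots from matplotlib 3.10.9. Some members are not reported here.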

Additional observations from a re-analysis of the deposited data

How the results depend on the processing

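No paired analysis was possible because the values used are a pooled mean with none per sample. For the same reason leaving out replicates and other count tests could not be run. The number of members moved by less than 1.5 times under every alternative, to 108 with a minimum of 100, 145 with a minimum of 10 and 196 with none. Their median level, 62.0 per kb, was 83.1 with the longest transcript, 288 with the coding length and 107 with the canonical transcript, 51.6, 91.4 and 23.1 with minimums of 10, 100 and none, and 57.2 without the scaffold genes. The share of the 10 highest members, 41.7%, was 40.4%, 43.3%, 39.1% and 41.0% with the longest transcript, the coding length, the canonical transcript and no length, and 43.4% without the members that overlap other exons by over 50%. The share of the amino acid carriers, 38.9%, was 41.1%, 40.7%, 39.4%, 43.0% and 40.4% in the same order. The ratio of light subunits to *Slc3a2*, 1.87, was 1.49, 2.08 and 1.29 with the longest transcript, the coding length and the canonical transcript. The members' share of the summed mean, 0.761%, was 0.850% of the protein-coding rows and 0.745% without the overlapping members. The share of members with a promoter CpG ratio of at least 0.6, 73.3%, was 77.2% and 66.3% with the listed start of the highest and lowest ratio and 79.2% over genes with 1 listed start, and that of carriers under the minimum, 35.6%, was 33.3% with the lowest and 36.6% over genes with 1 start. The canonical transcript, the set without scaffold genes and the choices of start were added after seeing the data. These scales change the unit of a level and not its error, which is unknown. Means near the minimum rest on few reads and are the least certain.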
